A study of Mus musculus with 4 samples.

Results

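The genes described here are Lyl1 and 9 other transcription factors and cofactors of blood stem and progenitor cells, namely Tal1, Lmo2, Ldb1, Gata1, Gata2, Runx1, Fli1, Erg and Myb. They are 10 of the 18194 genes read from the arrays. Every probe set, the group of short probes that reports a transcript, was taken if the annotation paired it with 1 of these genes, which gave 20 of the 45101 probe sets on the array. Where a gene had several, the probe set with the strongest average signal was used, and the 10 further ones are given beside it. The set was chosen by the change of Lyl1, whose signal differed widely between SAHA and control arrays, so the values of Lyl1 are a description with no test. The other 9 were taken for their known roles beside it, with earlier results of these arrays known.

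Dendritic cells, which take up antigen and show it to T cells, were grown from the marrow of C57BL/6 mice. The culture lasted 7 days in GM-CSF and IL-4, at 10 ng/ml each, and cells were selected for CD11c to a stated purity of 95%. They were then given SAHA for 12 hours, at a dose the labels write as 500 nm, in 2 arrays, or diluent (control) for the same time in 2 arrays. SAHA (vorinostat) inhibits histone deacetylases, the enzymes that take acetyl groups off histones. Both groups share the strain, the cytokines and the selection, each experiment drew on at least 3 mice, and the labels do not say whether the replicates had separate marrow pools. Values are log2 signals, on which a difference of 1 is a 2-fold change.

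LYL1 and TAL1 are closely related basic helix-loop-helix proteins. Each pairs with an E protein to bind DNA at E-boxes, and in blood progenitors the pair is joined to GATA factors through the bridging proteins LMO2 and LDB1. RUNX1 and the ETS factors FLI1 and ERG bind many of the same enhancers in stem and progenitor cells. The complex is best known from stem cells, erythroid cells and megakaryocytes, and dendritic cells are not where it is usually studied.

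The promoters of the paralogs Lyl1 and Tal1 are shown because these genes differ so much in response. Of the 10 genes, 8 had at least 1 promoter window in the RefSeq table of build GRCm38.p6, from 250 bases before to 50 bases after a transcript start, 15 windows in all. Lmo2 and Fli1 were not matched. The Lyl1 window lies at chr8:84701207-84701506 on the plus strand. The Tal1 windows lie at chr4:115056176-115056475 and chr4:115057561-115057860 on the plus strand. Capitals mark matches, on either strand, to the ETS motif CCGGAA, the GATA motif AGATAA, the RUNX motif TGTGGT, the GC box GGGCGG or the NF-E2 core TGANTCA.
Lyl1: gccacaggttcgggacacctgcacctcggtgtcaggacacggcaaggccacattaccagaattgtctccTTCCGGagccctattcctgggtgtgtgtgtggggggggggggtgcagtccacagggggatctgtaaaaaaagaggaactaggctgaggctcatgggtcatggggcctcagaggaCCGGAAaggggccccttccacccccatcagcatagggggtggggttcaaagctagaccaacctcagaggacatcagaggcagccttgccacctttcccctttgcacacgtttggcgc
Tal1, first start: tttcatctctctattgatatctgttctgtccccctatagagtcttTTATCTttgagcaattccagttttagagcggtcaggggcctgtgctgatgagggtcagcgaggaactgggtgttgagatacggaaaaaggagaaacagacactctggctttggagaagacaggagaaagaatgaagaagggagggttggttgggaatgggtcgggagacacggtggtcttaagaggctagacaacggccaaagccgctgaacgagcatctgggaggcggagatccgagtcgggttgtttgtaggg
Tal1, second start: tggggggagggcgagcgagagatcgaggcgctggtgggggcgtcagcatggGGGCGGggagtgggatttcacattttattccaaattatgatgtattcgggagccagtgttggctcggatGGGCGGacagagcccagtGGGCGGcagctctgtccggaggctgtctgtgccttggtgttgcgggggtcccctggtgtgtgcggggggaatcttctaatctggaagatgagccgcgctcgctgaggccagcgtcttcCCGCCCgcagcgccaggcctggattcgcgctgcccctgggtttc
The Lyl1 window held 2 ETS matches, beginning 181 and 67 bases before the start, and none of the other capitalised motifs. It also held 1 E-box (CANNTG), which is left in lower case. Of all 32851 windows of this length, 14.9% held the ETS motif and 72.3% an E-box. The first Tal1 window held 1 GATA match, a motif found in 11.2% of windows, and the second held 4 GC boxes, which 35.7% of windows hold. The RUNX motif was found in 16.8% of windows, and the members' match to it was in the first Runx1 window, with 2 copies. Among the windows of members, the ETS motif occurred in those of Lyl1 and, with 1 copy, in the second of Runx1. The NF-E2 core, in 7.81% of all windows, was in no window of a member. The Lyl1 window had 60.0% G and C, against a median of 52.7% over all windows. It held 7 CpG pairs, and the Tal1 windows held 11 and 22. Windows of members ranged from 2 CpG pairs, in the first of Runx1 and the second of Erg, to 41 in the first of Ldb1. These matches are descriptions of the letters in these windows, and binding was not measured.

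Lyl1 was 8.01-fold higher in SAHA-treated cells than in control cells. Its signal was 9.36 and 9.33 in the SAHA arrays, against 6.28 and 6.41 in the control arrays. The means were 9.35 ± 0.02 with SAHA and 6.35 ± 0.09 in control (SD, n = 2 each). The lower SAHA array stood 2.93 log2 units above the higher control array, and the arrays within each group lay close together. Among the 18194 genes the difference had rank 3 when ordered from the largest rise. Lyl1 was read by 1 probe set, so no second reading of it exists on this array. In a bulk sample like this a higher signal from more expressing cells and from more RNA per cell cannot be told apart.

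**Figure D1:**
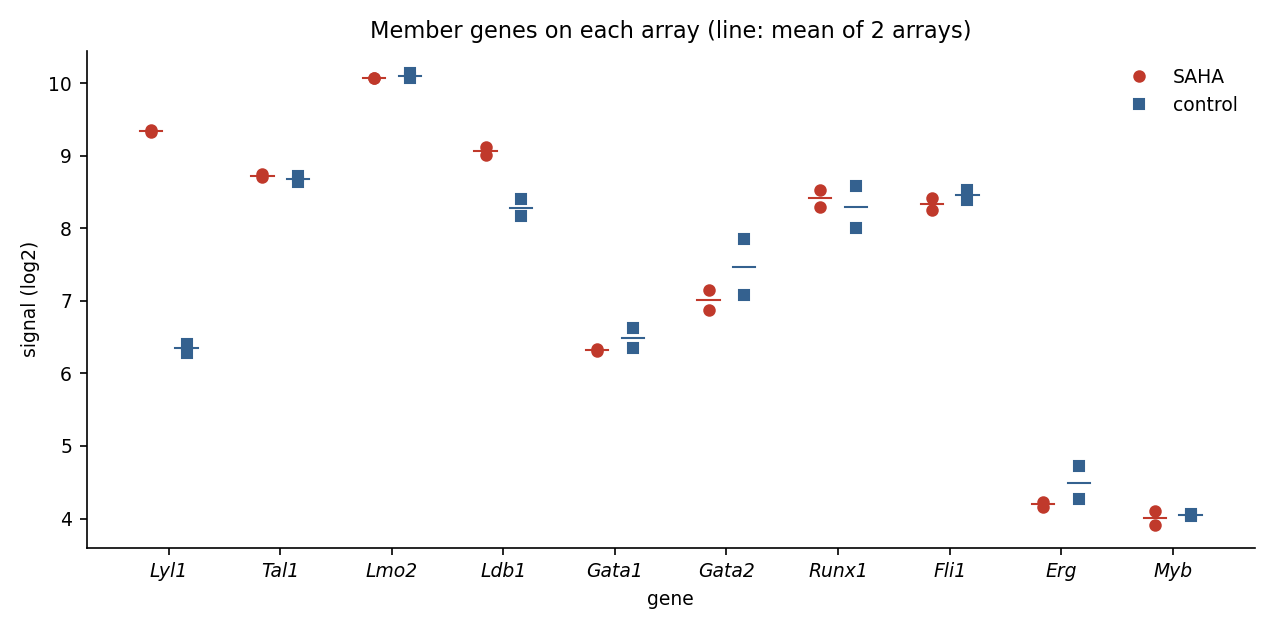
Signal (log2) of each member gene on each array, SAHA (circles, left) and control (squares, right), with a line at the mean of 2 arrays. Lyl1 stands at 9.36 and 9.33 with SAHA against 6.28 and 6.41 in control, Ldb1 is the other gene with SAHA clearly above control, and levels of different genes are not comparable because their probes differ.

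Tal1, the paralog of Lyl1 that is needed for all blood formation in the embryo, did not show such a difference. Its signal was 8.70 and 8.74 with SAHA, against 8.72 and 8.63 in control, and the groups overlapped. The change was 0.05 ± 0.14 on the log2 scale (SE; limma, adjusted p = 0.891). Its 95% interval ran from -0.29 to 0.38, a fold of 0.815 to 1.31.

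Lmo2, the LIM-only bridge between the helix-loop-helix pair and the GATA factor, had 10.07 and 10.07 with SAHA, against 10.07 and 10.14 in control. The change was -0.03 ± 0.13 (SE, adjusted p = 0.909), with a 95% interval of -0.34 to 0.27. The SAHA values lay within 0.1 of every control value, and the groups overlapped.

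Ldb1, the LIM domain-binding protein that dimerises and links these complexes across distant DNA sites, had 9.12 and 9.01 with SAHA, against 8.41 and 8.17 in control. Both SAHA arrays lay above both control arrays. The change was 0.78 ± 0.16 (SE), or 1.72-fold, with a 95% interval of 0.40 to 1.16. It missed the threshold over all genes (limma, adjusted p = 0.0652). With replicate number as a block, a pairing the labels do not name, the adjusted p of Ldb1 was 0.00068. Leaving out 1 array at a time moved the change between 0.66 and 0.90 and the adjusted p between 0.0574 and 0.373.

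The GATA factors, which recruit the complex to GATA sites, had lower means with SAHA, and neither passed. Gata1, the erythroid and megakaryocytic member, had 6.31 and 6.33 with SAHA, against 6.36 and 6.63 in control. The SAHA values lay just below the lower control value, and the change was -0.17 ± 0.16 (SE, adjusted p = 0.618). Gata2, the factor of stem cells, progenitors and mast cells, had 7.15 and 6.87 with SAHA, against 7.85 and 7.08 in control. The control arrays were 0.77 apart and the groups overlapped. The change of Gata2 was -0.45 ± 0.27 (SE, adjusted p = 0.436), and its further probe set gave -0.28. Without control replicate 1 the change of Gata2 was -0.07, and without control replicate 2 it was -0.84, so its size rests on which control array is kept.

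Runx1, the runt-domain factor needed for the first blood stem cells, had 8.53 and 8.30 with SAHA, against 8.59 and 8.01 in control. The SAHA values lay between the control values. The change was 0.12 ± 0.22 (SE, adjusted p = 0.818), with a 95% interval of -0.42 to 0.65. Its 6 probe sets ranged from -0.30 to 0.12, with 3 above and 3 below 0. In 3 of these 6 the groups did not overlap, 1 higher by 0.11 and 2 lower by -0.14 and -0.30. Over all genes 50.7% did not overlap, so nothing is read from this count. None of the 6 passed the threshold on its own. Averaged over its probe sets, Runx1 had a change of -0.04.

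Fli1, an ETS factor of blood and vessel cells, had 8.25 and 8.41 with SAHA, against 8.40 and 8.53 in control. The change was -0.13 ± 0.15 (SE, adjusted p = 0.679), the groups overlapped, and the further probe set gave -0.09. Erg, a related ETS factor of stem cells and endothelium, lay low on the arrays, with 4.16 and 4.23 with SAHA, against 4.72 and 4.27 in control. Its change was -0.30 ± 0.17 (SE, adjusted p = 0.403), and the gap between groups was set mostly by control replicate 1, since without that array it was -0.08. The second Erg probe set gave 0.03 and was in the lowest 25% of signals on all 4 arrays.

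Myb, a factor needed for the growth of blood progenitors, lay near the bottom of the scale. It had 3.91 and 4.10 with SAHA, against 4.06 and 4.04 in control, and 24.2 to 28.4% of the probe sets on each array were at or below it. Of its 3 probe sets 2 were under the 25th percentile on all 4 arrays, and the 1 used was under it on 2 arrays. The 2 further probe sets of Myb gave 0.06 and 0.27. The change of the probe set used was -0.05 ± 0.11 (SE, adjusted p = 0.862), and at this signal a change may not be measurable.

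**Figure D2:**
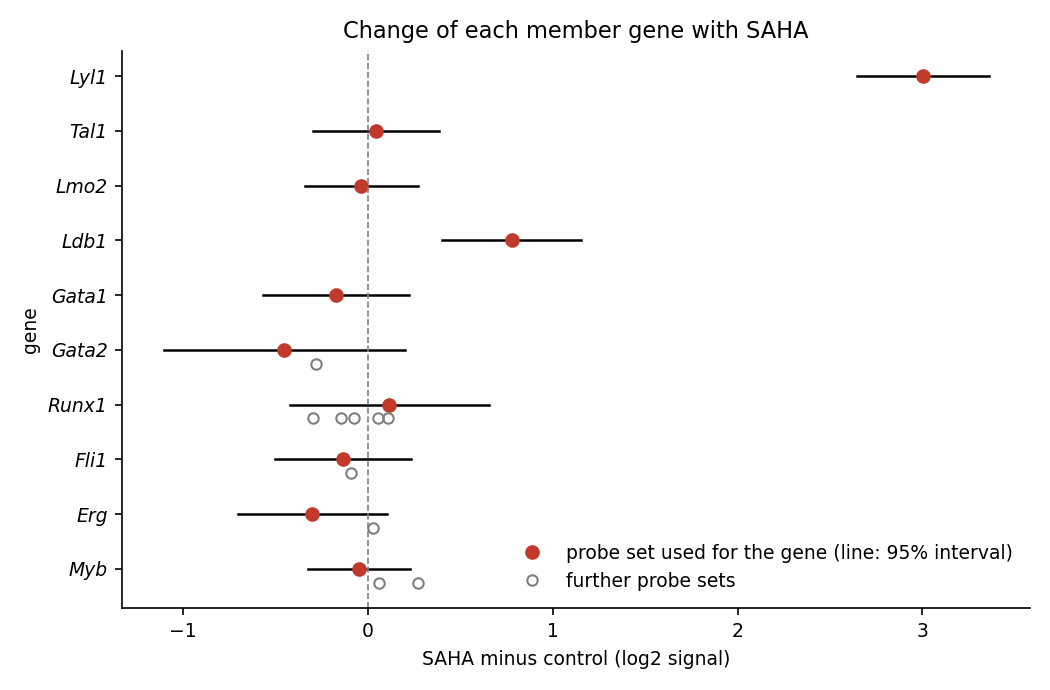
Change of each member gene, as SAHA minus control on the log2 scale (filled circles), with the 95% interval of the fit (lines) and the changes of further probe sets (open circles). Lyl1 lies at 3.00, Ldb1 at 0.78 with an interval above 0, and the intervals of the other 8 genes include 0.

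Of the 10 genes, 1 passed the adjusted threshold of 0.05, against 2.23% of all genes, and it was Lyl1, for which the set was chosen, so nothing is read from this count. None of the other 9 passed (limma, with 1 of them, Ldb1, under an unadjusted p of 0.05), and leaving out each array in turn gave them no call. An unadjusted p under 0.05 was found for 3287 of all 18194 genes. The 9 had a median change of -0.05, and the median of all genes was also -0.05. Of these 9, 6 were below 0 and 3 above. The SAHA and control arrays did not overlap for 4 of the 10, 2 with SAHA above and 2 with SAHA below. Over all genes the share was 50.7%, with SAHA above in 21.1% and below in 29.6%. Changes smaller than 0.2 were found for 6 of the 10 and for 56.8% of all genes.

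**Figure D3:**
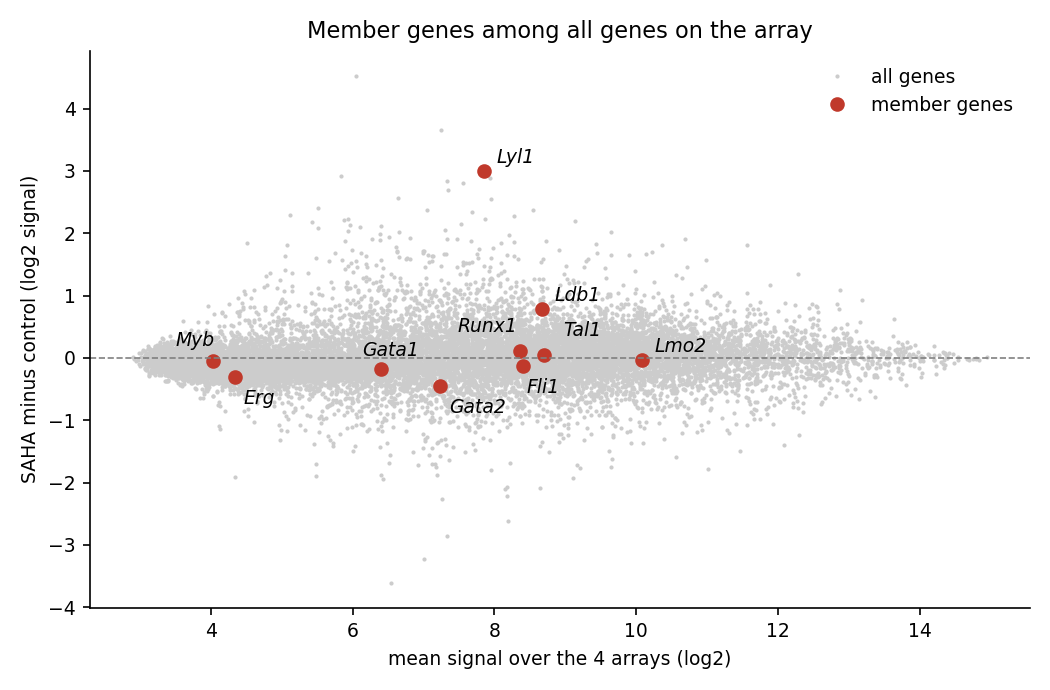
Change with SAHA (log2 signal, SAHA minus control) against the mean signal over the 4 arrays (log2) for all 18194 genes (grey) and the 10 member genes (red). Lyl1 stands at 3.00 near the top edge of the cloud, Ldb1 at 0.78, and the other 8 lie between -0.45 and 0.12.

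The partners of these factors were followed through lists of 51 further genes, of which 47 were measured. Of the 47, 2 rose and 1 fell over all genes (limma, adjusted p under 0.05), or 6.38% against 2.23% of all genes. These lists were chosen with earlier results of these data known, so nothing is read from this difference. An unadjusted p under 0.05 (limma) was found for 10 of the 47, against 3287 of all 18194 genes. Higher calls made up 1.52% and lower calls 0.709% of all genes. The median change of the 47 was -0.07.

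Ssbp2 rose 2.04-fold. It encodes a single-stranded DNA-binding protein that binds LDB1 and is known to protect it from degradation. Its signal was 7.67 and 7.51 with SAHA, against 6.56 and 6.57 in control, and the groups were well apart. The change was 1.03 ± 0.15 (SE, adjusted p = 0.0338). The call was lost with the mean of its probe sets (0.81, adjusted p = 0.0750), without SAHA replicate 1 (0.232), without SAHA replicate 2 (0.109) and without control replicate 2 (0.0540). Its further probe sets gave 1.76, 0.33 and 0.13. Values of these were partly under the 25th percentile of their arrays, on 1 array for each of the first pair and on all 4 for the last. Ssbp2 and Ldb1 both had SAHA arrays above control arrays, as did 21.1% of all genes, and the change of Ldb1 missed the threshold.

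Among the 7 measured LMO and LDB adaptors and SSBP proteins, Ssbp2 was the 1 that passed, and none fell. The list had a median of 0.07. Its relatives Ssbp3 and Ssbp4 had changes of -0.40 and 0.07. Lmo4, a LIM-only protein that also binds LDB1, had 0.08, and Ldb2, the relative of Ldb1, had -0.27 at a signal near the bottom of the scale.

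The E proteins are the direct partners of LYL1 and TAL1, and the ID proteins take E proteins out of such pairs. None of 7 measured passed, and the median was -0.07. An unadjusted p under 0.05 (limma) was found for 2 of the 7, against 3287 of all 18194 genes. Tcf4, which encodes E2-2, the E protein that plasmacytoid dendritic cells depend on, had 8.95 and 9.27 with SAHA, against 8.002 and 8.38 in control. The groups did not overlap, and the change of Tcf4 was 0.92 ± 0.20 (SE, adjusted p = 0.0759). Its further probe sets gave 0.71 to 1.12 where every value was above the 25th percentile. The 1 remaining probe set gave 0.04 and was under that percentile on 1 array. Id1 had 8.59 and 8.12 with SAHA, against 7.47 and 7.65 in control, a change of 0.80 ± 0.20 (SE, adjusted p = 0.110). The other E protein genes, Tcf3 and Tcf12, had changes of -0.07 and -0.36, and Id2 and Id3 had 0.14 and -0.15.

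Of 9 measured GATA, RUNX and ETS partners and cofactors none passed, and the median was -0.004. An unadjusted p under 0.05 (limma) was found for 4 of the 9, against 3287 of all 18194 genes. Zfpm1, the GATA cofactor FOG1, had 7.73 and 6.98 with SAHA, against 6.55 and 6.29 in control. The change of Zfpm1 was 0.94 ± 0.26 (SE, adjusted p = 0.140), and a further probe set gave 0.49. Cbfb, the subunit that RUNX proteins need for firm DNA binding, had 10.49 and 10.69 with SAHA, against 11.41 and 11.12 in control. Both SAHA arrays lay below both control arrays, and the change of Cbfb was -0.67 ± 0.15 (SE, adjusted p = 0.0893). Spi1, the ETS factor PU.1 of myeloid cells, had -0.22, and Cbfa2t3, a corepressor of the complex, had 0.14.

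Nfe2 rose 4.17-fold. It encodes a basic leucine zipper factor of megakaryocytes and erythroid cells, and with 1 probe set it was the 1 called gene of 13 measured progenitor, erythroid and megakaryocytic regulators. Its signal was 8.42 and 8.24 with SAHA, against 6.74 and 5.79 in control. The SAHA arrays lay above both control arrays, which were 0.95 apart. The change was 2.06 ± 0.31 (SE, adjusted p = 0.0338), and the call was lost without SAHA replicate 1 (0.155) and without SAHA replicate 2 (0.0831). The median of these 13 genes was -0.03, and none fell. Gfi1b, Klf1 and Mecom, other regulators of these lineages, had changes of -0.31, -0.15 and -0.03. Over the 4 arrays Gfi1b had 4.69 to 5.13 and Mecom 4.80 to 4.90, under the array medians of 5.34 to 5.35. Hhex, a homeobox factor of early progenitors, had -0.23.

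The last list held 11 measured genes of the erythroid, megakaryocytic, stem cell and vascular programs in which these factors act. None rose and 1 fell, with a median of -0.13. Procr, the endothelial protein C receptor, had 11.71 and 11.81 with SAHA, against 12.40 and 12.43 in control. Procr fell by 0.65 on the log2 scale (SE 0.11, adjusted p = 0.0438). The call of Procr was lost without each array in turn (adjusted p of 0.0799 to 0.315), without the intensity trend (0.0594), with the offset of 32 (0.0511), with the floor (0.169), and with averaged (0.0617) or separate (0.0576) probe sets. The stem cell factor receptor Kit had -0.13, the erythropoietin receptor Epor -0.31 and the integrin chain Itga2b -0.19. The vessel growth factor Angpt2 had -0.16 and the erythroid enzyme Alas2 0.08. Over the 4 arrays Angpt2 had signals of 4.53 to 4.81 and Alas2 of 4.38 to 4.53, under the array medians.

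**Figure D4:**
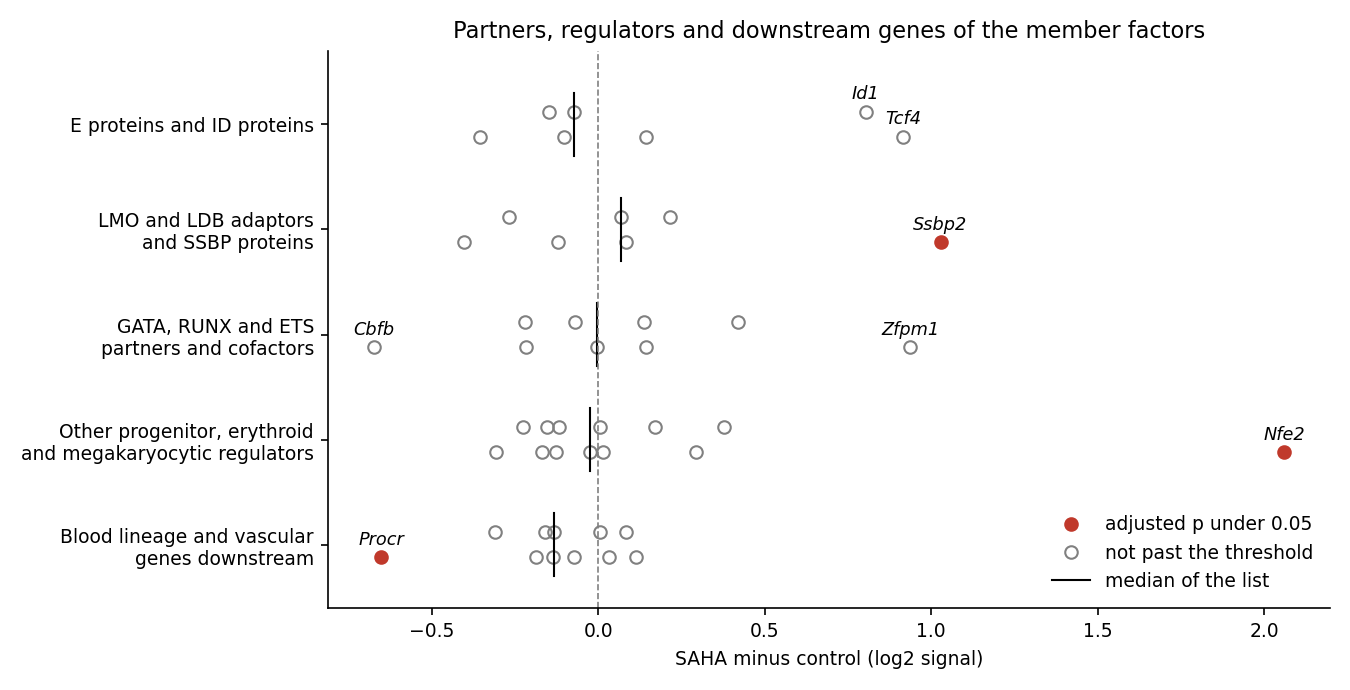
Change with SAHA (log2 signal, SAHA minus control) of each measured gene on 5 lists, with filled circles for genes past the adjusted threshold and a black line at each list's median. Ssbp2 at 1.03, Nfe2 at 2.06 and Procr at -0.65 are filled, and the medians lie between -0.13 and 0.07.

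The 5 genes whose pattern over the 4 arrays was nearest to that of Lyl1 were Aplp1, Serpinb1a, Svip, Pfn2 and Cnn3. Likeness was the Euclidean distance between log2 values centred on each gene's mean, among genes with a mean above the median of genes. The distances were 0.33 for Aplp1, 0.40 for Serpinb1a, 0.47 for Svip, 0.74 for Pfn2 and 0.75 for Cnn3. With 4 arrays in 2 groups this mostly ranks genes by the size of their rise.

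The genes next to Lyl1 on the chromosome, named for their place after the values had been seen, did not show a difference of that size. Trmt1 and Nacc1 lie on one side and had changes of 0.40 ± 0.20 and 0.13 ± 0.14 (SE). Nfix and Dand5 lie on the other and had 0.23 ± 0.15 and -0.08 ± 0.15. None of these 4 passed (adjusted p of 0.350 for Trmt1, 0.678 for Nacc1, 0.463 for Nfix and 0.805 for Dand5). Beside Nfe2, chosen in the same way, Cbx5 and Hnrnpa1 on one side had -0.06 and -0.01, and on the other Copz1 had 0.42 and Gpr84 fell by 2.26 (adjusted p = 0.0111). Beside Ldb1, Armh3 and Hps6 had -0.47 and 0.003, and Pprc1 and Nolc1 had -0.33 and -0.50. Beside Ssbp2, Atg10 had 0.07, and Acot12 and Zcchc9 had -0.05 and -0.28. Of these neighbours of Nfe2, Ldb1 and Ssbp2, Gpr84 was the 1 that passed.

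Apart from neutrophil markers, no marker of another cell type passed the threshold. Of 11 dendritic cell markers 4 lay above and 7 below 0, with a median of -0.11. The MHC class II chain H2-Aa had 14.30 and 14.45 with SAHA, against 14.20 and 14.37 in control, whereas the lectin Cd209a was low, at 4.55 and 4.47 with SAHA against 4.57 and 4.68 in control. The regulator Irf4 was the 1 marker that rose (0.81 ± 0.14, SE, adjusted p = 0.0431), and a further Irf4 probe set gave 0.26. The call of Irf4 was lost without control replicate 2, SAHA replicate 1 or SAHA replicate 2. It was also lost with quantile normalization (limma, adjusted p = 0.0507), genes above the median alone (0.053) and the floor (0.171). Averaged (0.215) or separate (0.059) probe sets lost it too. No dendritic cell marker fell past the threshold. SAHA arrays lay below control arrays for 5 of the 11, against 29.6% of all genes, and above for 1, against 21.1%. The 5 included the GM-CSF receptor chain Csf2ra (-0.87, limma, adjusted p = 0.0830) and the chemokine receptor Ccr7 (-0.49, adjusted p = 0.118). No stem and progenitor marker passed among 6 measured, where Cd48 had 0.21. Cd34, a progenitor surface protein, had 6.17 and 4.15 with SAHA, against 4.31 and 3.84 in control, and Prom1 had 6.00 and 4.55 with SAHA, against 4.91 and 4.14 in control. For both, SAHA replicate 1 was the highest array, and the groups overlapped.

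No erythroid (5 measured), megakaryocyte (6), mast cell and basophil (8), B cell (5), T and NK cell (5), endothelial (6) or macrophage (7) marker passed. With 3287 of all 18194 genes at an unadjusted p under 0.05 (limma), there were 1 megakaryocyte, 1 B cell, 2 endothelial and 1 macrophage marker. These were the platelet chemokine Ppbp (0.81, adjusted p = 0.0773), the B cell receptor component Cd79a (-0.34, 0.207), the endothelial proteins Esam (0.88, 0.215) and Emcn (-0.31, 0.156), and the efferocytosis receptor Mertk (-0.92, 0.0509), all named after their values were seen. The summed linear signal of the erythroid markers was 157 to 169 with SAHA and 168 to 199 in control. That of the megakaryocyte markers was 15812 to 16437 with SAHA and 11892 to 12581 in control, and most of it came from Pf4 and Ppbp. Of these 6 markers 3 lay above and 3 below 0. For mast cells and basophils the sum was 276 to 300 with SAHA and 326 to 396 in control. Of these 8 markers 3 were under the 25th percentile on every array, and Gata2, itself a member, made the largest part. For stem and progenitor markers the sum was 2466 to 2566 with SAHA and 2129 to 2306 in control. Most of it came from Cd48, at 11.075 and 11.158 with SAHA against 10.983 and 10.824 in control. Of these 6 markers 3 lay above and 3 below 0, so the sum is mainly a reading of Cd48. For macrophage and monocyte markers the sum was 67163 to 68242 with SAHA and 71364 to 71993 in control. All 7 lay below 0, with a median of -0.08, as did 10692 of all 18194 genes. The dendritic cell markers summed to 72355 to 73477 with SAHA and 75810 to 78997 in control. Of the markers with the highest signal on these lists, Pf4 had a change of 0.17, Epor -0.31, Gata2 -0.45, Lyz2 -0.01, Pax5 -0.08, Cd4 0.01 and Kdr -0.14.

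Of 9 measured neutrophil markers 8 lay below 0, with a median of -0.82, and Prtn3 alone lay above 0. Past the threshold 5 fell, namely Ngp (-1.88), Ltf (-1.56), S100a9 (-1.51), Camp (-1.13) and S100a8 (-0.82), and Prtn3 rose by 3.65. Over all genes 0.709% were called lower and 1.52% higher. The calls of Ngp, Ltf, S100a9, Camp and S100a8 were lost without SAHA replicate 1 (adjusted p of 0.0593, 0.138, 0.0901, 0.128 and 0.204). Those of Ltf (0.0606), Camp (0.160) and S100a8 (0.159) were lost without SAHA replicate 2, those of Camp (0.0622) and S100a8 (0.0582) without control replicate 2, and that of S100a8 (0.0750) without control replicate 1. The summed linear signal of the 9 markers was 1949 to 2054 with SAHA and 3026 to 3163 in control. The part of such cells in the values of Lyl1 was not tested.

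Since the labels say no more than that replicates are biological, p-values reflect the spread among 4 arrays, which may be partly technical. Array medians lay between 5.34 and 5.35. Arrays of 1 group correlated across genes at 0.993 in control and 0.995 with SAHA, and arrays of different groups at 0.983 to 0.989. For 1 gene and 2 arrays a group, the smallest p of an exact permutation test (two-sided) is 0.333, and so few arrays limit how precise any value here is.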

How the data were processed

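For each of the 4 arrays, cRNA was labelled from 6 µg of total RNA and hybridised to Affymetrix arrays, per the labels' protocols. The values are the deposited log2 signals of probe sets, as the authors made them. The log2 scale was read from the values, and the submitters' processing notes name R 2.7. How background was corrected and probes summarised and normalized is not stated in these sources, so the deposited normalization was kept. Groups and replicate numbers came from the sample titles.

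The platform annotation gave 1 symbol to 34958 of 45101 probe sets, several to 932 and none to 9211, and 34754 of these were matched to a current RefSeq symbol through their Entrez identifier. No probe set with several symbols named a member. SAHA and control were compared with limma (version 3.58.1, R 4.3.3), using lmFit and a trended eBayes fit, two-sided, over all 18194 genes with Benjamini-Hochberg adjustment and a threshold of 0.05. An SE is the moderated standard error and an interval its 95% interval. The fit was tested on simulated data. A value under the 25th percentile of its array is called near the bottom of the scale. Promoters came from RefSeq, build GRCm38.p6.

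The members, the gene lists and the tests were chosen with earlier results of these data known. Genes were named if they were members, passed the threshold on a list (or, on a partner list where none passed, had the 2 largest changes at a mean above the median of genes), had the highest signal on a marker list, or were 1 of the 5 nearest to Lyl1. Others on the lists were named after their values were seen. Alternatives were the trend, robust spread, quantile normalization, a floor at the 20th percentile, an offset of 32, genes above the median alone, averaged or separate probe sets, replicate number as a block, and leaving out each array. Arrays give no read depth.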

Additional observations from a re-analysis of the deposited data

How the results depend on the processing

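Of the 10 member genes, 1 passed, Lyl1, by whose change the set was chosen, so nothing is read from this count. The count was 0 with values floored at the 20th percentile (limma, 2 at an unadjusted p under 0.05). With a replicate block it was 2, Lyl1 and Ldb1. Of 47 partner and downstream genes, 3 passed, and 0 did so with the floor (9 unadjusted), 1 with averaged probe sets, 10 with the replicate block and 0 to 2 without each array. Over all 18194 genes 405 passed, against 0 with the floor (3034 unadjusted), 226 of 9097 genes above the median, 3616 with the replicate block and 31 to 529 without each array (31 without SAHA replicate 1 and 90 without SAHA replicate 2). The cause of these shifts was not tested, except that fewer genes were tested above the median. The replicate numbers pair no cultures in the labels, so the block was not used for calls. Deviations of same-numbered arrays correlated at 0.57 across genes, from 2 pairs, and whether these arrays share a culture was not tested.

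Lyl1 changed by 2.59 to 3.06 in all alternatives. Changes near 0 turned sign for Runx1 with averaged probe sets (-0.039) and for Myb with quantile normalization (0.040) and averaged probe sets (0.094). Without each array in turn Tal1 ranged from -0.00023 to 0.090, Lmo2 from -0.069 to 4.6e-05, Runx1 from -0.17 to 0.40 and Myb from -0.14 to 0.051. Of 11 called genes named on lists or as neighbours, all 11 lost the call with the floor, 9 when SAHA replicate 1 was left out, 7 when SAHA replicate 2 was, 5 when control replicate 2 was, 2 when control replicate 1 was, 4 with separate and 3 with averaged probe sets. Without the trend, with quantile normalization and with the offset 1 of 11 was lost, as was 1 of the 10 that lie above the median of genes. None was lost with robust spread or the replicate block. Low signal limits Myb, and Erg, Gfi1b, Mecom, Angpt2 and Alas2 also lay under the array medians.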
